A study of Mus musculus with 8 samples.

Results

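The sarcomeric myosin heavy chains form the motor of the thick filament, and which of their genes a fibre uses largely sets how fast it contracts. The family was taken as 7 genes of the 12394 that are named alone on a probe set, and its members were chosen by name from the platform annotation, as the probe sets that carry exactly 1 of those gene symbols. This gave 10 probe sets out of 22626, controls left out: 1 each for Myh3, Myh8, Myh7, Myh2 and Myh4, 2 for Myh6 and 3 for Myh1. A further 2 probe sets are annotated with both Myh6 and Myh7 and were assigned to neither gene. The family was put forward, selected from earlier results of these data, with the dystrophic signals of Myh3 and Myh8 already known to be above the normal ones. Its differences between the groups are therefore given with their standard errors as a description, without p-values.

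The series set dy/dy mice against mice labelled normal, both at 8 weeks of age, in the diaphragm, which drives breathing. The dy/dy mouse has a severe muscular dystrophy because its muscle fibres are deficient in laminin α2, a protein of their surrounding matrix. Each group had 4 Affymetrix arrays, and each array held muscle of 3 pooled mice, so 12 mice per group were measured and the spread between single mice is not visible. The labels do not name the strain, the sex or the exact genotype of the normal mice.

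Mouse muscle makes its sarcomeric myosin heavy chains in a developmental order. Embryonic myosin (Myh3) and perinatal myosin (Myh8) are used before and around birth and are then replaced by the adult forms, but fibres that regenerate after injury use them again for a time. The adult forms are slow myosin (Myh7, which is also the β-myosin of the heart) and the fast types IIa (Myh2), IIx (Myh1) and IIb (Myh4), listed from slower to faster. Myh6 encodes α-myosin of the heart. In bulk muscle, a lower signal from fewer fibres of a type cannot be told apart from less RNA in each fibre.

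In the RefSeq gene order Myh3, Myh2, Myh1, Myh4 and Myh8 follow each other on chromosome 11. No other protein-coding gene lies between them, and the antisense RNA gene Myhas lies between Myh1 and Myh4. Myh6 and Myh7 lie together on chromosome 14. The promoters of Myh3 and Myh8, whose signals differed most between the groups, and that of Myh4, an adult fast gene of the same cluster, are shown so that these neighbours can be compared. They are RefSeq sequences of build GRCm38.p6, from 250 bases before to 50 bases after a start site, at chr11:67078050-67078349, chr11:67276874-67277173 and chr11:67237562-67237861, all on the plus strand. Capitals mark every base within a run of at least 14 bases that also stands in the promoter of another of the 7 genes. Overlapping runs are marked as 1 stretch, as in the first capitals of Myh8, which join runs shared with Myh1 and with Myh4.
Myh3: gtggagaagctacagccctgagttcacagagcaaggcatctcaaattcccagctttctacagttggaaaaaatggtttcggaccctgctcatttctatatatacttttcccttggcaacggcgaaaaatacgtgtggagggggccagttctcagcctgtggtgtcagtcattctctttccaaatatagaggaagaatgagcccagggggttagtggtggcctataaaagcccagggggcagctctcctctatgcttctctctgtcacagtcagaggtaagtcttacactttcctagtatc
Myh8: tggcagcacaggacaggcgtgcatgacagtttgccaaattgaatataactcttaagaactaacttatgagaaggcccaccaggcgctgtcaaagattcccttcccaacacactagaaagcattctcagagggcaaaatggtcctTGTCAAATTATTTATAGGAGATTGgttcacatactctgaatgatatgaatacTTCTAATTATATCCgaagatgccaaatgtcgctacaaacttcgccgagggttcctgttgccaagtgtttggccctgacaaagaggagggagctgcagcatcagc
Myh4: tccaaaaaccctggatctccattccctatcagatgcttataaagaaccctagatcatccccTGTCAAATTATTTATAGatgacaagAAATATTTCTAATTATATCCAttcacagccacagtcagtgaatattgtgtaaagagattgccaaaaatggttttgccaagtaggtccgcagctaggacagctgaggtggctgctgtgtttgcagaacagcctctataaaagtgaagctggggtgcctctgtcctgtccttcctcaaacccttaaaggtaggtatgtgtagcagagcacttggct

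The Myh8 promoter held 38 bases in such runs, although Myh8 is a developmental gene, and the Myh3 promoter held 0. The longest stretch common to Myh2, Myh1 and Myh4 had 20 bases, aatatttctaattatatcca, which began at positions -130, -165 and -163 from their start sites. It stood in 3 of the 32544 distinct promoter sequences of 300 bases, those of these 3 genes. Myh8 shared 22 bases with Myh1 and 17 with Myh4, and the 14 bases that it shared with Myh2 stood in 4 promoters. The longest stretch that Myh3 shared with another member had 11 bases, with Myh4 and with Myh6. The letters TATAAA, searched on both strands, stood at position -29 in Myh3, at -96 in Myh8 and at -213, -179 and -31 in Myh4. In Myh8 they stood only as TTTATA on the printed strand. They were also found at -208 and -32 in Myh1, at 11 in Myh2 and at 2 in Myh6. Of all promoters 13.6% held them somewhere. Such matches describe the letters in these windows only.

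Signals quoted here were rescaled so that the 8 arrays share 1 mean of 487.7, since normal replicate 4 had been deposited at 400.2 and the other arrays at 500.2, both as means trimmed by 2% at each end. Log2 differences are those of log2(signal + 16), with the normal mean subtracted from the dystrophic mean. Lama2, the gene of laminin α2, checked the labels: its signal was 231.9 to 333 in dystrophic pools and 749.5 to 981.8 in normal pools (log2 difference -1.60, SE 0.15, limma adjusted p = 0.000891). The 6 skeletal muscle markers all exceeded the TrpnX controls described below, with a summed signal of 108792 to 120601 in dystrophic and 106259 to 165749 in normal pools. On the first principal component dystrophic replicate 3, at 34.0, and normal replicate 4, at -36.1, stood apart from the other 6 arrays, at -11.5 to 12.5. Without both, the log2 difference was 4.97 for Myh3, 2.33 for Myh8, 0.30 for Myh7 and -0.12 for Myh2, and the 2 probe sets called among the members were again those of Myh3 and Myh8. Macrophage markers moved with the groups. Their sum over 5 genes was 4096 to 4642 in dystrophic and 2329 to 2871 in normal pools, Cd68 and Mpeg1 passed the test, and their part in the results below was not tested. Satellite cell markers (5 genes) summed to 658.1 to 759.9 in dystrophic and 547.2 to 731.2 in normal pools. The 6 smooth muscle markers, which include desmin of skeletal fibres, summed to 14621 to 17330 in dystrophic and 14618 to 21091 in normal pools.

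Embryonic myosin rose. Myh3 (probe set 1427115_at) had signals of 628.9, 665.7, 924.4 and 1114 in dystrophic replicates 1 to 4, against 7.90, 11.2, 8.78 and 9.14 in normal replicates 1 to 4. The groups lay far apart. All 4 normal values were within the range of the TrpnX controls, bacterial sequences with signals of 0.78 to 32.2 here, so the normal level is not distinguishable from background. In dystrophic pools the mean reached 25.9 times the brightest TrpnX value. By brightness, Myh3 stood at percentile 82.7 of all probe sets in dystrophic pools and at percentile 4.79 in normal pools. The means were 833.2 ± 228.6 in dystrophic and 9.26 ± 1.41 in normal pools (SD, n = 4 each), with a log2 difference of 5.03 (SE 0.21). Because the normal signal is so dim, that value depends on the offset: it was 6.32 with an offset of 1 and 3.58 with an offset of 64.

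Perinatal myosin also rose. Myh8 (1426650_at) had signals of 347.2, 684.6, 1443 and 764.4 in dystrophic replicates 1 to 4, against 112, 84.7, 105 and 47.8 in normal replicates 1 to 4. Every dystrophic pool lay above every normal pool, and all 8 values exceeded the TrpnX controls. Normal Myh8 thus lay above that background where normal Myh3 did not. By brightness Myh8 stood at percentile 82.2 in dystrophic and 32.45 in normal pools. Without probe sequences, binding of related myosin transcripts to this probe set could not be checked. The means were 809.9 ± 459.3 in dystrophic and 87.4 ± 28.8 in normal pools (SD, n = 4 each), with a log2 difference of 2.88 (SE 0.36).

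The rise of Myh8 was uneven. Its highest dystrophic pool was 4.16 times its lowest, against 1.77 times for Myh3. Dystrophic replicate 3, the highest for Myh8, was also the pool with the most liver transcripts: 6 liver markers summed to 49644 there and to 1565 to 5838 in the other dystrophic pools, against 1052 to 3233 in normal pools. Without that pool the log2 difference of Myh8 was 2.55. The bacterial spike-in controls put the arrays at 3 levels, with replicate 1 of both groups at the highest, replicate 3 of both in the middle and replicates 2 and 4 of both at the lowest. Within these levels the difference of Myh8 was 1.50, 3.59 and 3.21, and that of Myh3 was 4.75, 5.25 and 5.07. The part of these technical levels in the smaller Myh8 difference of the replicate 1 arrays was not tested.

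The fit across all 13575 probe sets that passed the filter on dim values called 67, or 0.494%, at an adjusted p under 0.05 in limma. It called 62 higher (0.457%) and 5 lower (0.0368%). Of the 10 myosin heavy chain probe sets 8 were in that fit. Those of Myh3 and Myh8 were called higher, 0 were called lower and 6 were not called. The groups did not overlap in 4 of the 8, against 6.40% of all tested probe sets. Nothing is read from these counts, since the family was put forward with this contrast known. Myh3 and Myh8 were both in the fit only through their dystrophic values, since their mean log2 values were 9.69 and 9.52 in dystrophic pools and 4.66 and 6.64 in normal pools, against a limit of 7.11. For Myh3 the mean over all arrays, 7.17, lay just above that limit. With the lowest 60% of probe sets left out, the probe sets of Myh3 and Myh8 were both too dim to be tested and 0 members were called.

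**Figure D1:**
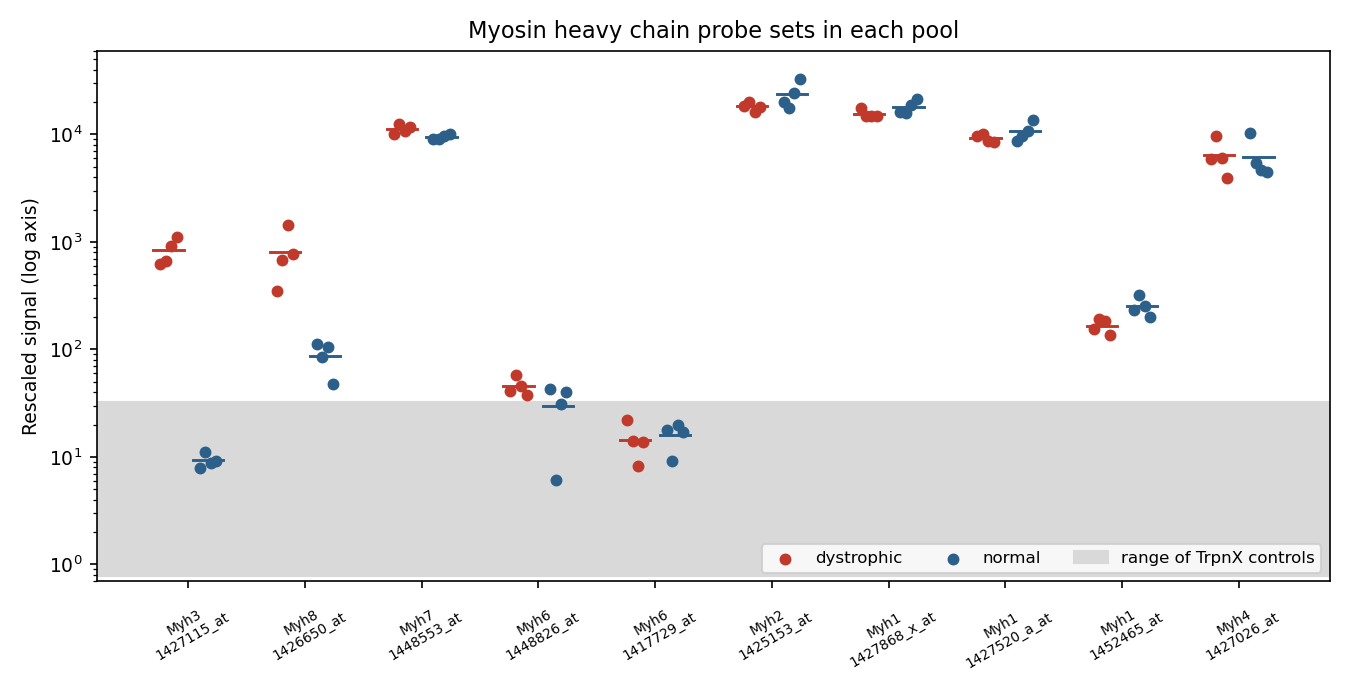
Rescaled signal (log axis) of the 10 probe sets in each pool, dystrophic in red and normal in blue, with the group mean as a line and the range of the TrpnX controls, 0.78 to 32.2, in grey. Myh3 lies within the grey range in all 4 normal pools and at 628.9 to 1114 in the dystrophic pools, while the adult isoforms overlap or nearly overlap between the groups.

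Slow myosin lay slightly higher. Myh7 (1448553_at) had signals of 10101, 12448, 10725 and 11713 in dystrophic replicates 1 to 4, against 9047, 9057, 9653 and 10011 in normal replicates 1 to 4. The groups did not overlap, though the lowest dystrophic pool was close to the highest normal pool. The means were 11247 ± 1040 in dystrophic and 9442 ± 473.6 in normal pools (SD, n = 4 each), a ratio of 1.19. The log2 difference was 0.25 (SE 0.11) and was not called. It was 0.34, 0.15 and 0.16 within the lowest, middle and highest spike-in levels.

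Cardiac α-myosin was at or near background. Both Myh6 probe sets were below the filter. The brighter, 1448826_at, ranged from 37.5 to 57.3 in dystrophic and from 6.14 to 43.0 in normal pools, and the other, 1417729_at, from 8.29 to 21.9 in dystrophic and from 9.07 to 19.7 in normal pools. All 8 values of 1417729_at and 2 normal values of 1448826_at lay within the range of the TrpnX controls. The heart markers as a list, 7 genes with Myh6 among them, summed to 474.6 to 752.1 in dystrophic and 539.6 to 710.1 in normal pools, and 0 of them were called. Among them only the atrial light chain Myl7 was within the TrpnX range on every array. Nppa, Tnni3 and Myh6 were within it on some arrays, and Nppb, Ryr2 and Mybpc3 on none. Mybpc3 had signals of 191.9 to 220.6 in dystrophic and 193.8 to 254.9 in normal pools.

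Among the fast isoforms, type IIa myosin lay lower with wide overlap. Myh2 (1425153_at) had signals of 18497, 20046, 16220 and 18118 in dystrophic replicates 1 to 4, against 19994, 17702, 24270 and 32465 in normal replicates 1 to 4. The highest value was that of normal replicate 4, the array deposited at another scale, which also had the highest sum of skeletal muscle markers, 165749. The means were 18220 ± 1573 in dystrophic and 23608 ± 6502 in normal pools (SD, n = 4 each). The log2 difference was -0.34 (SE 0.18), was not called, and was -0.17 without normal replicate 4.

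The 3 probe sets of type IIx myosin, Myh1, all lay below 0 and differed in size. The brightest, 1427868_x_at, whose suffix marks probes that may match related transcripts, had signals of 14823 to 17584 in dystrophic and 15819 to 21439 in normal pools. Its log2 difference was -0.21 (SE 0.13). The second, 1427520_a_at, had 8498 to 10031 in dystrophic and 8688 to 13554 in normal pools, with a log2 difference of -0.19 (SE 0.15). Without normal replicate 4 these were -0.12 and -0.07, so they were smaller without the array that had the highest Myh2 signal. The dimmest, 1452465_at, had signals of 154.0, 193.6, 184.3 and 134.8 in dystrophic replicates 1 to 4, against 230.2, 320.8, 255.9 and 202.1 in normal replicates 1 to 4. Its groups did not overlap, its log2 difference was -0.55 (SE 0.19), and it was -0.64 without normal replicate 4. None of the 3 was called, and which of them follows Myh1 best cannot be told from these files.

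Type IIb myosin differed more among pools than between groups. Myh4 (1427026_at) had signals of 5927, 9754, 5996 and 3912 in dystrophic replicates 1 to 4, against 10218, 5436, 4706 and 4459 in normal replicates 1 to 4. Each group held 1 pool with a much higher signal than its other 3, dystrophic replicate 2 and normal replicate 1. The coefficient of variation was 38.1% in dystrophic and 43.6% in normal pools, against 9.25% and 5.02% for Myh7. The log2 difference was 0.05 (SE 0.30), was not called, and ranged from -0.17 without dystrophic replicate 2 to 0.32 without normal replicate 1. The antisense gene Myhas, named here after its values were seen, also varied widely, from 402.4 to 1561 in dystrophic and from 602.4 to 2215 in normal pools (log2 difference -0.16, SE 0.43, limma adjusted p = 0.949).

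**Figure D2:**
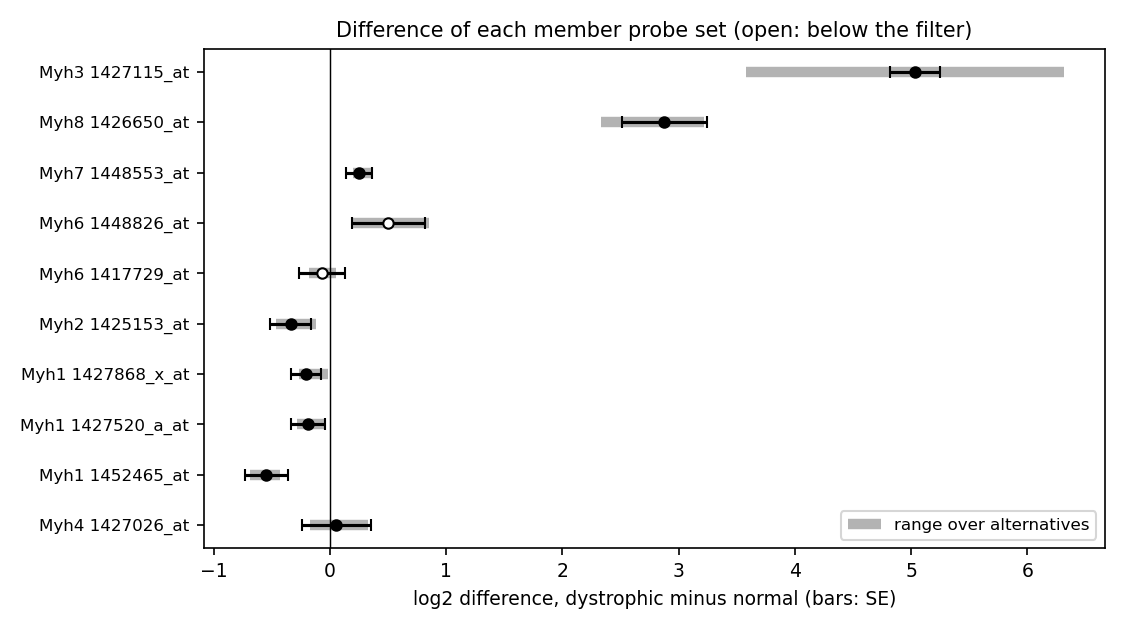
Log2 difference, dystrophic minus normal, of each probe set (points, with SE as bars), with the range over 21 alternatives in grey and open points for the 2 Myh6 probe sets below the filter. Myh3 at 5.03 and Myh8 at 2.88 stand apart from the other 8, which lie between -0.55 and 0.50.

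Probe sets differ in how strongly they bind, so no isoform's level was set against another's. The balance of isoforms was followed as the log2 signal of one class minus that of another within each array, and only the change of that quantity between the groups is read. Developmental myosin was the mean of Myh3 and Myh8, slow myosin was Myh7, and adult fast myosin the mean of Myh1, Myh2 and Myh4, each gene by its brightest probe set.

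The balance of developmental over adult fast myosin was -4.69, -4.37, -3.27 and -3.45 in dystrophic replicates 1 to 4, against -8.08, -7.78, -7.88 and -8.51 in normal replicates 1 to 4. The groups did not overlap. The shift was 4.12 (SE 0.38), and 3.15 with an offset of 64 in place of 16. Against slow myosin, the developmental balance shifted by 3.71 (SE 0.30). Within the developmental class, Myh3 gained on Myh8 by 2.16 (SE 0.40), with 0.83, -0.04, -0.63 and 0.53 in dystrophic replicates 1 to 4, against -2.42, -1.89, -2.29 and -1.34 in normal replicates 1 to 4. That gain too rests on normal Myh3 values at background and on the offset.

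Slow myosin shifted against adult fast myosin by less. This balance was -0.30, -0.20, -0.07 and 0.20 in dystrophic replicates 1 to 4, against -0.72, -0.34, -0.42 and -0.54 in normal replicates 1 to 4. All dystrophic pools lay above all normal pools, by a narrow margin, and the shift was 0.41 (SE 0.14). It was 0.45, 0.34 and 0.42 within the lowest, middle and highest spike-in levels, and 0.32 to 0.52 over 21 alternatives. Without normal replicate 4 the shift was 0.40, while the single fast isoforms changed in opposite directions. Myh2 and the brightest Myh1 probe set went from -0.34 and -0.21 to -0.17 and -0.12. Myh4 went from 0.05 to -0.08, so these changes partly cancelled in the class mean. By gene, the shift of Myh7 was 0.59 (SE 0.17) over Myh2, 0.46 (SE 0.14) over Myh1 and 0.19 (SE 0.40) over Myh4. The groups overlapped for Myh4 and not for Myh2 or Myh1, though within the replicate 1 arrays the shift over Myh1 was 0.04. No p-value is given, since the classes were formed with the members' values known.

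**Figure D3:**
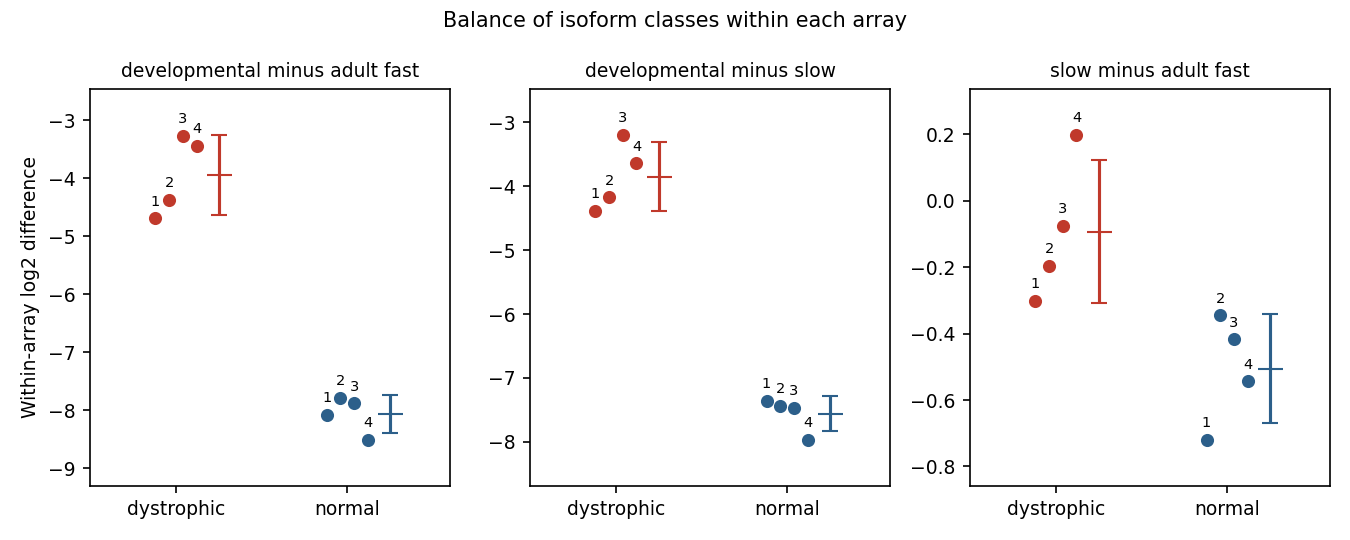
Balance of isoform classes within each array, as the log2 signal of one class minus that of another, with points numbered by replicate and bars for mean ± SD (n = 4 each). Both developmental balances are higher in dystrophic pools, by 4.12 and 3.71, and the slow over adult fast balance is higher by 0.41.

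Among the isoforms, Myh2 and Myh1 moved most alike from pool to pool within the groups. Across the 8 arrays Pearson's r was 0.887 between them and 0.831 after centring each group on its own mean. For Myh3 and Myh8 it was 0.943, and 0.520 after centring. For Myh4 it was -0.245 to Myh2 and -0.383 to Myh1. These values describe 8 arrays that share scaling, and 4 arrays share each group mean. The Myh1 probe set used here was 1427868_x_at, whose probes may match related transcripts. Its signal and that of Myh2 were both highest in normal replicate 4, at 21439 and 32465. The part of that array in their correlation was not tested.

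The genes whose tested probe sets correlated best with each isoform over the 8 arrays are given 3 to an isoform. For Myh3 they were Myl4, the light chain of embryonic muscle and of the atria (r = 0.995, and 0.859 after centring on group means), Thbs4 (0.990 and 0.590) and Ccndbp1 (0.987 and 0.306). For Myh8 they were Snx9 (0.980 and 0.873), Cnn3 (0.980 and 0.843) and Csf1r, the receptor for a macrophage growth factor (0.976 and 0.815). For Myh7 they were Rasa3 (0.958 and 0.893), Hfe (0.949 and 0.931) and S100pbp (0.948 and 0.881). For Myh2 they were Acadm, of fatty acid oxidation (0.985 and 0.983), the muscle enolase Eno3 (0.983 and 0.982) and the mitochondrial creatine kinase Ckmt2 (0.975 and 0.967). For Myh1 they were the mitochondrial malate dehydrogenase Mdh2 (0.975 and 0.962), the small heat shock protein Cryab (0.974 and 0.970) and the mitochondrial nucleotide carrier Slc25a4 (0.973 and 0.969). For Myh4 they were Rcbtb1 (0.928 and 0.934), Prnp (0.921 and 0.921) and 4833420G17Rik (0.917 and 0.926). Each set of 3 was picked out of 13575 probe sets for its r over these 8 arrays, so the values are a description. Normal replicate 4 had the highest signals of Myh2 and of the brightest Myh1 probe set. The part of that array in the correlations given for Myh2 and Myh1 was not tested.

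The light chains sit on the neck of the myosin head. Of 11 listed, all were on the array and 9 were tested: 1 rose, 0 fell and 8 did not pass, with a median log2 difference of 0.10, against -0.01 over all tested probe sets. The riser was Myl4, with signals of 1260, 1422, 1985 and 2310 in dystrophic replicates 1 to 4, against 126.3, 143.2, 188.3 and 140.6 in normal replicates 1 to 4. Its log2 difference was 3.38 (SE 0.20, limma adjusted p = 1.44e-05). The order of its dystrophic pools was that of Myh3. The adult chains, named after their values were seen, did not pass: the fast Myl1 was at -0.36 (SE 0.18), the fast regulatory Mylpf at -0.18 (SE 0.17), and the slow Myl2 and Myl3 at -0.10 (SE 0.15) and 0.07 (SE 0.15). Without normal replicate 4, Myl1 was at -0.17 and Mylpf at -0.0017.

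Of 9 thick filament partners 5 were tested, 1 rose, 0 fell and 4 did not pass, with a median of 0.07. Mybph, a myosin-binding protein, had 347.9, 343.6, 475.2 and 715.0 in dystrophic replicates 1 to 4, against 140.6, 121.8, 94.5 and 99.7 in normal replicates 1 to 4. The groups did not overlap, and the log2 difference was 1.85 (SE 0.23, limma adjusted p = 0.0053). Mybph too was in the fit only through its dystrophic values, with a mean log2 value of 8.86 in dystrophic pools and 7.01 in normal pools, and its limma adjusted p was 0.0161 with no filter. With dystrophic replicate 3 and normal replicate 4 both left out it was 1.78 and lost its call (limma adjusted p = 0.0549).

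Genes of myosin folding and turnover and the other class II myosin heavy chains did not pass. Of 9 folding and turnover genes 5 were tested, 0 were called by limma and 1 had an unadjusted p under 0.05, with a median of -0.30, and of -0.12 without dystrophic replicate 1 or without normal replicate 1. That gene, named for this after its values were seen, was the methyltransferase Smyd2, at 0.51 (SE 0.13). The brightest were Trim54, at 0.05 (SE 0.16), and the chaperone Hsp90aa1, at -0.47 (SE 0.26). Of 7 other heavy chains 3 were tested, 0 were called and 0 had an unadjusted p under 0.05, with a median of -0.06. The nonmuscle heavy chains Myh9 and Myh14 were at -0.47 (SE 0.53) and 0.04 (SE 0.13), and Myh11 of smooth muscle, the last of the 3, was at -0.06 (SE 0.21). The Myh9 signal was 6598 in normal replicate 4, against 661.4 to 1933 in the other normal pools and 1061 to 1616 in dystrophic pools. Without that array the median of the 3 was 0.05.

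The medians of the slow fibre and fast fibre lists lay on opposite sides of 0, and neither the lists nor their difference was tested. Over all tested probe sets 5.60% had an unadjusted p under 0.05 and were higher, 4.13% had one and were lower, and 47.7% lay above 0. Among 11 slow fibre genes limma called 0, and 3 had an unadjusted p under 0.05, all higher: Tnnt1, Casq2 and Csrp3, named after their values were seen. Of these 11, 8 lay above 0, with a median of 0.28. The 2 brightest, Mb, myoglobin, at -0.23 (SE 0.16), and Myl2, were among the 3 below 0. Among 9 tested fast fibre genes limma called 0, and 1 had an unadjusted p under 0.05, the calcium buffer Pvalb, at -0.47 (SE 0.15). Of the 9, 1 lay above 0, Actn3, at 0.07 (SE 0.20), and the median was -0.23. Both genes were named after their values were seen. The brightest were Tnni2, the inhibitory troponin of fast fibres, at -0.25 (SE 0.15), and the calcium pump Atp2a1, at -0.23 (SE 0.17). With normal replicate 4 left out, as for Myh2, the fast fibre median was -0.10, with Tnni2 at -0.10, Atp2a1 at -0.07 and 0 of 9 above 0. The slow fibre median was then 0.22. Both lists share 2 genes each with the light chains.

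Of 19 regulators known to act on myosin heavy chain genes 14 were tested, 1 rose, 0 fell and 13 did not pass, with a median of -0.03. Myog, the transcription factor myogenin, had 575.5, 374.2, 774.9 and 1026 in dystrophic replicates 1 to 4, against 190.8, 262.0, 236.8 and 187.4 in normal replicates 1 to 4. The groups did not overlap, and the log2 difference was 1.50 (SE 0.26, limma adjusted p = 0.029). The call was lost with no filter and without any single array other than dystrophic replicate 2, with differences of 1.28 to 1.59 and adjusted p up to 0.109.

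**Figure D4:**
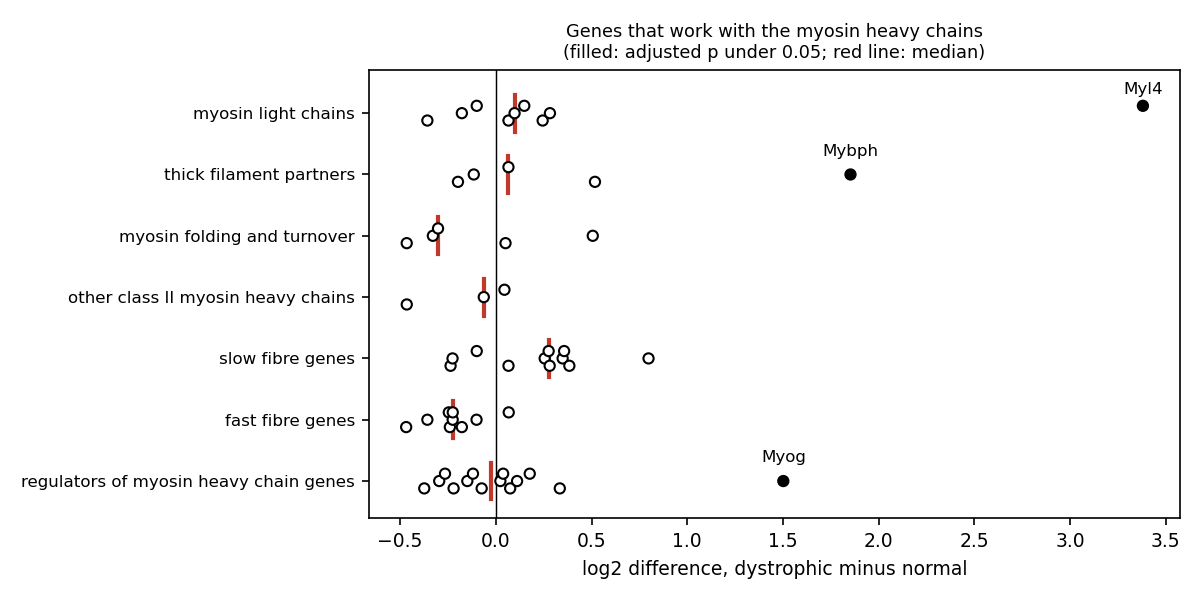
Log2 difference, dystrophic minus normal, of the tested genes in 7 lists of partners and regulators of the myosin heavy chains, filled where limma's adjusted p was under 0.05 and with each list's median as a red line. Myl4 at 3.38, Mybph at 1.85 and Myog at 1.50 are the filled points, the slow fibre median is 0.28 and the fast fibre median is -0.23.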

How the data were processed

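RNA of diaphragm pools was hybridised to 8 Affymetrix arrays. The authors deposited intensity values on a linear scale for 22690 probe sets, 64 of them controls, made with MAS5 per the submitters' processing notes. No MAS5 version, detection call or genome build was given. Without detection calls, dim values were judged against the TrpnX controls. The number of arrays limits the precision.

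Arrays were brought to 1 common trimmed mean, the average over all 8. Log2(signal + 16) was fitted with limma 3.58.1 in R 4.3.3 (lmFit, eBayes with an intensity trend), leaving out controls and the lowest 40% of probe sets by mean log2 value, with Benjamini-Hochberg adjustment over 13575 probe sets. The fit was tested on simulated data. Probe sets below the filter have their difference and SE from a fit without it. Symbols came from the platform annotation, updated through Entrez identifiers for 20351 of 20380 probe sets with 1 symbol. A gene outside the family was represented by its brightest probe set. Arrays were divided into spike-in levels where the sorted log2 poly-A control signal had a gap over 0.5. Figures used matplotlib 3.10.9.

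Named were all members, Lama2, up to 4 called genes of each list or its 2 brightest where none was called, and the 3 genes most correlated with each isoform. Genes named beyond this rule were chosen after their values were seen. The members and lists were chosen with earlier results of these data known. The labels do not say that a shared replicate number marks a shared batch. Deviations of same-numbered arrays correlated at 0.484, -0.0455, 0.145 and 0.133, so 1 of 4 pairs was below 0. The number was not used as a block in the reported fit, although spike-in levels were alike for arrays of the same number. On the second principal component replicate 1 of both groups stood apart, at 33.9 normal and 25.9 dystrophic. All other arrays lay at -16.8 to -2.48 there. Alternatives were offsets of 1 and 64, 3 other scalings, 2 other filters, 2 other variance settings, array weights, 2 blocks, arrays left out and other makeups of the classes.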

Additional observations from a re-analysis of the deposited data

Results flagged for a closer look

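In normal replicate 1 the Myh4 signal of 10218 stood far from the other 3 normal pools, at 4459 to 5436. In dystrophic replicate 1 the Myh1 probe set 1427868_x_at, at 17584, stood far from the other 3 dystrophic pools, at 14823 to 14983. These are 2 of 20 groups of 4 arrays looked at, and chance alone gives about 1 in 20. The Myh4 difference was 0.32 without that array and the Myh1 difference was -0.27 without its array.

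Data that the comparisons leave out were also looked at. Of the 2 probe sets annotated with both Myh6 and Myh7, 1448554_s_at was at 6939 to 8321 in dystrophic pools and 5326 to 6690 in normal pools, without overlap, a log2 difference of 0.2978 with an SE of 0.12 (limma, adjusted p = 0.462). The other, 1448827_s_at, overlapped, at 447.8 to 594.5 in dystrophic and 229.0 to 729.0 in normal pools. Neither was called, and 6.40% of all tested probe sets had groups that did not overlap.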

How the results depend on the processing

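Of the 210 values of member differences under alternatives, 206 moved by less than the spread between replicates. The 4 exceptions were Myh3 at 6.32 and 3.58 with offsets of 1 and 64, and, under quantile normalization, Myh7 at 0.36 and the Myh1 probe set 1427868_x_at at -0.02. The cause of the quantile changes was not tested. Myh4 changed sign under 4 alternatives and the dim Myh6 probe set under 2, and neither was called. The count of called members was 2 in 19 of 21 alternatives. It was 1 with an offset of 1, which put Myh3 below the filter, and 0 with the lowest 60% left out. The balance of developmental over adult fast myosin shifted by 4.87 and 3.15 with offsets of 1 and 64, and that over slow myosin by 4.45 and 2.74. Neither the replicate block nor the spike-in block moved a difference, since each level holds equal numbers of both groups. The 2 other filters and 2 other variance settings could not move a member's difference either. All of these settings are thus among the 206 unmoved values by construction. The count of probe sets called, 67, was 105 with the replicate number as a block, 114 with the spike-in level as a block, 127 with array weights, 28 to 58 with each array left out (44 without normal replicate 3, and 37, 33 and 28 without dystrophic replicates 2, 3 and 4), and 31 without normal replicate 4 and dystrophic replicate 3 together. That last setting left 1 of the 3 companion genes called, Myl4. Leaving out single arrays kept 2 to 3 of them. Not every array correlated best with its own replicate number. Filter and variance settings do not enter the isoform balance. The blocks cannot move it either, and scaling of a whole array nearly cancels in it. The range of dim signals limits Myh3 in normal pools and Myh6 in all.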
